A study of Homo sapiens with 4 samples.

Results

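Olfactory receptor genes encode the odorant-sensing receptors of the nose, and chromosome 11 carries several large clusters of them. The set described here holds the 171 protein-coding genes of chromosome 11 whose symbol is OR followed by digits, letters and digits, of 20163 protein-coding genes in the annotation (GENCODE release 44 mapped to GRCh37). Each gene was given a window of its body plus 10 kb on either side, and the intervals of the peak lists that touched a window by at least 1 bp were taken. These windows merged into 92 stretches covering 3.54 Mb, and they held 32 of the 57907 SOX2 intervals and 8 of the 15220 SOX2-DBD intervals. Of the latter, 7 were also in the SOX2 list, so 33 different intervals are described.

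The lists came from CUT&RUN, which cuts and sequences the DNA next to an antibody-bound protein. BJ cells, an established line of human foreskin fibroblasts, had expressed V5-tagged SOX2 or its V5-tagged DNA-binding domain (SOX2-DBD) for 48 h, and the antibody was against V5. Of 4 samples, 2 per group, a list of replicate 1 of each group and a second SOX2 list named as down-sampled were analysed. The labels do not say whether replicates were pooled or how the proteins were introduced, and an untransduced sample was not analysed here. Depth is unknown and no value has an error between replicates, so no p-value is given. The 95% intervals beside densities (exact Poisson) and shares (Wilson) cover counting error only, and intervals are not replicates. A shared interval has the same position and signal in both lists, and the group in which it was measured is not stated. Peak lists of an introduced protein hold no expression values, so the fibroblast label could not be checked against marker genes.

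An olfactory receptor is a G protein-coupled receptor that, in a sensory neuron of the nose, signals through the G protein subunit encoded by GNAL to raise cyclic AMP. Each such neuron expresses a single receptor gene and keeps the others in condensed chromatin. In other cell types these genes are generally silent. Class I receptors, families 51 and above, were first described in fish, and in mammals they lie in a single cluster beside the beta-globin genes. All other families belong to class II. SOX2 binds DNA through its HMG domain, which recognises the core ACAAAG or ACAATG.

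The sequences below show this core in the member intervals that the lists share, in the SOX2-DBD-only interval, and in the SOX2-only interval of highest total signal, that of OR6X1. Each is 60 bases of hg19 around the core match nearest the region of maximum signal, read 5′ to 3′ on the strand that carries ACAAAG or ACAATG, with the core in capitals. The shared intervals beside OR51V1 and OR2AG1 hold no core on either strand and are not shown.

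OR52K1 shared, chr11:4502340-4502399, plus strand: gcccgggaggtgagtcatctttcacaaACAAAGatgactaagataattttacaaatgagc
OR51B5 shared, chr11:5389831-5389890, minus strand: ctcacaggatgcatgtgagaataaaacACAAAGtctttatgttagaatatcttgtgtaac
OR56B1 shared, chr11:5756900-5756959, plus strand: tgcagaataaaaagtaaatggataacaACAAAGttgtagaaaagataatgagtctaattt
OR9Q1 shared, chr11:57826691-57826750, minus strand: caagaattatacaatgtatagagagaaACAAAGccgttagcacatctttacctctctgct
OR10V1 shared, chr11:59474124-59474183, plus strand: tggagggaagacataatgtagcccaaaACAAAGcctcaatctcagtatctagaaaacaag
OR8G5 SOX2-DBD-only, chr11:124134053-124134112, plus strand: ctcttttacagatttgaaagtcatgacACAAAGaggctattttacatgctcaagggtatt
OR6X1 SOX2-only, chr11:123626416-123626475, minus strand: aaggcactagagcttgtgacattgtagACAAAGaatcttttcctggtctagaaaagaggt

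The core was ACAAAG in all 7 sequences shown. In the OR51B5 shared and OR10V1 intervals the core touched the region of maximum signal, and in OR6X1 it lay 309 bp from its middle. A match is a description of sequence and not a binding site. In all, 26 of the 33 intervals held at least 1 core, up to 5 in an interval. The same count over whole intervals was not made for the rest of the chromosome. Of all 200-bp tiles of the windows, 31.4% held a core, and the SOX2 intervals there were longer, with a median width of 594 bp.

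Olfactory receptor windows held fewer intervals than the rest of the chromosome. In the windows SOX2 intervals had a density of 9.05 per Mb (95% interval 6.19 to 12.8), against 19.8 per Mb (19.0 to 20.6) in the other 128 Mb of determined sequence, a ratio of 0.458 (0.312 to 0.648). At the density of the rest, 69.9 intervals would have fallen in windows of this length, against the 32 found. For SOX2-DBD the density was 2.26 per Mb (0.977 to 4.46) against 4.69 (4.32 to 5.08), a ratio of 0.483 (0.207 to 0.957) that rested on 8 intervals. This lower density did not hold under every setting, since the interval included 1 in 6 of 23 alternatives, such as 0.618 (0.248 to 1.28) with 5 kb either side and 0.653 (0.280 to 1.29) without the cluster from OR4A16 to OR5AK2. The down-sampled SOX2 list, which carries no signal values, placed 26 intervals in the windows, a ratio of 0.568 (0.370 to 0.836). SOX2 and SOX2-DBD therefore had similar ratios with overlapping intervals, and as most SOX2-DBD intervals are rows of the SOX2 list, these ratios are not independent.

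Counted by gene, 30 of the 171 members (17.5%, 12.6 to 23.9) had a SOX2 interval in their window, against 44.9% of the other 1146 protein-coding genes of chromosome 11 and 48.0% of all other protein-coding genes of the genome. A SOX2-DBD interval was present in 11 members (6.43%, 3.63 to 11.2), against 21.6% on chromosome 11 and 24.1% in the genome. Receptor genes are short, with a median body of 1.07 kb against 21.5 kb for the other genes, so their windows were shorter too. With 20-kb windows centred on each gene, the same length for all, 23 members (13.5%, 9.13 to 19.4) had a SOX2 interval against 25.6% of the other genes of the chromosome. The same count for SOX2-DBD was 7 members (4.09%, 2.0 to 8.21) against 7.33%, a background inside the members' own interval. On the gene body alone, 6 members (3.51%) had a SOX2 interval and 3 (1.75%) a SOX2-DBD interval, against 34.6% and 17.2% of the other genes. At equal length the SOX2 share of all 171 members lay below its background, and for SOX2-DBD the difference was not detectable with so few intervals. The Wilson intervals count members as separate, although neighbours share intervals. Of the 171 members, 60 lie in a single stretch without a SOX2 interval, and none of their equal-length windows holds one. All 23 members with an interval are therefore among the others, whose share is higher than 13.5%. Whether that share lies below 25.6% was not tested, so the difference at equal length may rest on this stretch.

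**Figure D1:**
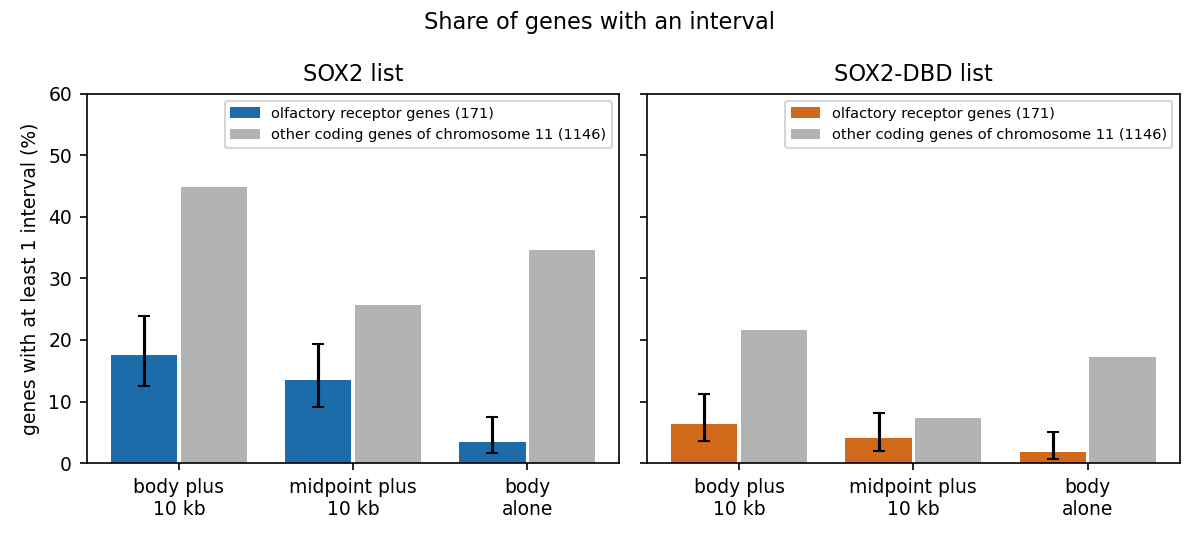
Share of genes (vertical axis, percent) with at least 1 interval of the SOX2 list (left) or the SOX2-DBD list (right), under 3 definitions of the window. Coloured bars are the 171 olfactory receptor genes with Wilson 95% intervals and grey bars the 1146 other protein-coding genes of chromosome 11; at equal window length (midpoint plus 10 kb) the SOX2 shares are 13.5% and 25.6%.

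No interval of any of the lists touched the coding sequence of a member. The coding sequence of the members amounted to 162 kb, and at the rate of the other coding genes of chromosome 11, where 132 SOX2 intervals touched 1942 kb, 11 intervals would have been found. The ratio of the rates was 0, with an upper bound of 0.340, and the rates were not matched for exon length. At the SOX2 density of the rest of chromosome 11, the same length would have held 3.21 intervals. That number follows from length alone, whereas the count of 0 is of intervals touching the coding sequence with any part. Intervals that reach in from outside are not allowed for in 3.21, so it may understate a like count. The count of 0 was therefore not judged against it. For SOX2-DBD the rate of the other coding genes gave 2.34 intervals and an upper bound of 1.69, so a shortfall was not detectable in that list.

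Base composition and repeated sequence were measured for the same windows. Their GC content was 37.7%, against 41.7% in the rest of the chromosome. On chromosome 11 outside the windows, SOX2 intervals numbered 23.8 to 29.0 per Mb in the bands of 10-kb tiles under 42% GC and 10.1 per Mb at 42% or more. In tiles under 36% GC the windows held 7.59 per Mb (3.28 to 15.0), and in tiles of 36% to 38% they held 11.1 (5.56 to 19.9), against 23.8 and 24.8 outside. Weighted to the GC content of the windows, the rest of the chromosome would have given 88.1 SOX2 intervals, and the ratio became 0.363 (0.248 to 0.513). The windows were therefore further below sequence of like GC content than below the chromosome as a whole. The share of 31-base words found at several places in the genome was 13.4% in the windows and 14.1% in the rest. Per Mb of sequence whose 31-base word occurs once, the ratio was 0.454. The core ACAAAG or ACAATG was sought on both strands. It was present in 31.4% of 200-bp tiles of the windows and in 26.8% of those of the rest, not matched for GC content.

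**Figure D2:**
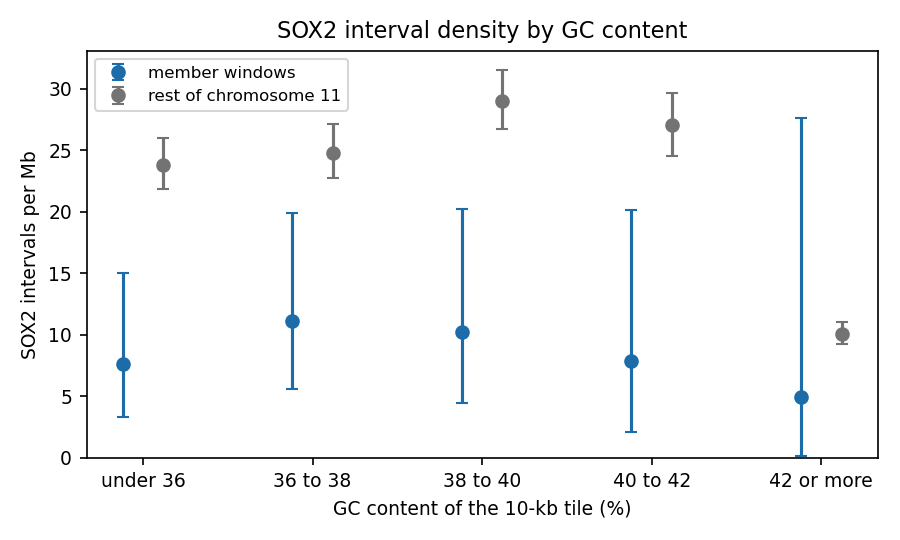
SOX2 intervals per Mb of determined bases (vertical axis) in 10-kb tiles of chromosome 11 grouped by GC content (horizontal axis, percent), for the windows of olfactory receptor genes (blue) and the rest of the chromosome (grey). Bars are exact Poisson 95% intervals; in the 4 bands under 42% GC the windows lie below the rest with bars that do not overlap, and at 42% or more the blue point rests on 1 interval.

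The shortfall was uneven along the chromosome. Members were split into 8 clusters wherever neighbouring gene starts lay over 1 Mb apart. The cluster from OR52B4 to OR10A3, on the short arm, has 67 members, among them all 55 class I genes, and it held 24 of the 32 SOX2 intervals. Its density of 17.3 per Mb (11.1 to 25.8) was 0.876 times that of the rest of the chromosome (0.560 to 1.31), a difference within counting error. All other members together held 8 SOX2 intervals in 2.15 Mb, or 3.72 per Mb (1.61 to 7.33), a ratio of 0.188 (0.0812 to 0.371). The first cluster was 4.65 times as dense as the others (2.02 to 12.0), an interval that makes no allowance for singling out 1 of 8 clusters. For SOX2-DBD the same contrast was 5 against 3 intervals, a ratio of 2.59 (0.503 to 16.6), which includes no difference. Leaving the first cluster out therefore moved the SOX2 ratio of the whole set from 0.458 to 0.188.

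The cluster from OR4A16 to OR5AK2, on the long arm beside the centromere, held no interval at all. It has 48 members of class II in 0.920 Mb of windows, where the density of the rest would place 18.2 SOX2 and 4.31 SOX2-DBD intervals. A count of 0 has an exact Poisson upper limit of 4.01 intervals per Mb, 0.203 times the SOX2 density of the rest. The 0.746 Mb between its windows was empty as well, as was the down-sampled list there. It lay inside the longest stretch of chromosome 11 without a SOX2 interval, chr11:48228643-56838267, which spans the centromere and holds 5.20 Mb of determined sequence. That stretch contains 60 members, from OR4B1 to OR5AK2, and 9 other genes annotated as protein-coding, among them FOLH1 and the TRIM genes TRIM48, TRIM49B, TRIM51 and TRIM64C. The OR4B1 interval ends at base 48228642 and borders it. The next longest stretch measured 2.58 Mb and contained no member. Repeated 31-base words made up 34.4% of the whole stretch but 12.4% of the OR4A16 to OR5AK2 windows, below the 14.1% of the rest of the chromosome. How far reads from repeated sequence were kept is not stated in the labels, and its part in the empty stretch was not tested.

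The remaining clusters held few intervals. From OR9Q1 to OR10V1, 21 members had 5 SOX2 intervals in 0.522 Mb, or 9.58 per Mb (3.11 to 22.4), whereas the 1.19 Mb between their windows held 40, or 33.7 per Mb. The ratio of windows to the stretches between them was 0.285 (0.0877 to 0.721). From OR6X1 to OR8A1, 22 members had 2 SOX2 intervals, and the 0.423 Mb between their windows also held 2. In the first cluster, which held 24 of the 32 SOX2 intervals, that ratio was 0.722 (0.426 to 1.19), and 0.946 (0.507 to 1.72) in the down-sampled list, both including no difference. Pooled over all clusters, which differ widely in density, the windows had 0.456 times the SOX2 density of the stretches between them (0.296 to 0.687), and for SOX2-DBD this ratio was 0.903 (0.320 to 2.40), on 8 and 12 intervals. The small clusters OR4C13 to OR4C12 (2 members), OR4A5 to OR4C46 (3 members) and the lone OR2AT4 held none, but at the density of the rest they would hold 0.832, 1.24 and 0.695 SOX2 intervals, so a shortfall was not detectable in windows this short.

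**Figure D3:**
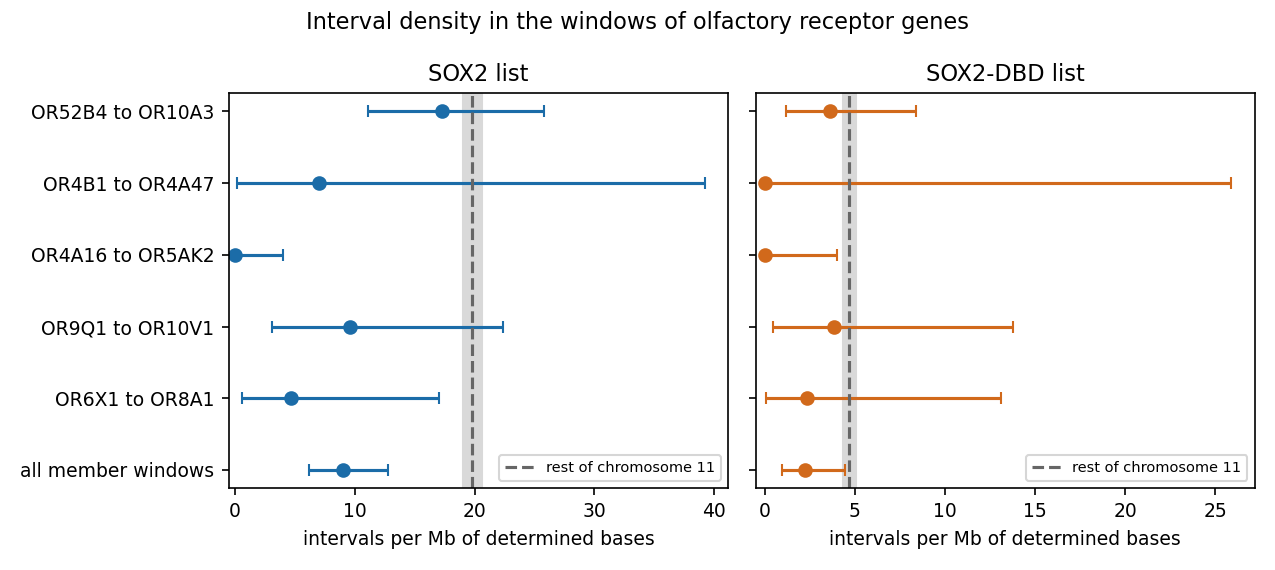
Intervals per Mb of determined bases (horizontal axis) in the windows of the 5 clusters with over 0.1 Mb of windows and in all member windows, for the SOX2 list (left) and the SOX2-DBD list (right). Bars are exact Poisson 95% intervals, and the dashed line with grey band is the rest of chromosome 11; in the SOX2 list the cluster from OR4A16 to OR5AK2 lies at 0 and the first cluster at 17.3, near the rest at 19.8.

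Within the first cluster the SOX2 list held more intervals per Mb near class II than near class I members. Of its 12 class II members, 9 (75%, 46.8 to 91.1) had a SOX2 interval in their window, namely OR2AG2, OR2AG1, OR6A2, OR10A5, OR10A2, OR2D2, OR2D3, OR5P2 and OR10A6, while OR10A4, OR5P3 and OR10A3 had none. Of its 55 class I members, 12 (21.8%, 12.9 to 34.4) had one. Per Mb of windows, class II of this cluster held 39.8 (18.2 to 75.6) and class I 12.9 (7.24 to 21.3), a ratio of 3.08 (1.19 to 7.51). The ratio was 2.37 (0.738 to 6.68) in the down-sampled list and 1.28 (0.0261 to 13.0) for SOX2-DBD, both including no difference. All class I members end by base 6221416 and the class II members begin at 6786857, so class cannot be told apart from position. The contrast between classes was chosen after its values were seen. By family, SOX2 intervals were found near 8 of 27 members of family 52, 3 of 22 of family 51, 1 of 6 of family 56, 4 of 5 of family 2, 4 of 16 of family 10, 3 of 25 of family 4, 3 of 35 of family 5, 2 of 5 of family 6, 1 of 23 of family 8, 1 of 5 of family 9 and neither member of family 1. In family 8, 2 members, OR8G1 and OR8G5, had a SOX2-DBD interval. Neighbours share intervals, and 12 of the 33 intervals lay in the windows of 2 or more members.

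Among class I genes, OR51V1, the member with the window nearest to the beta-globin gene HBB, 14.8 kb away, had 3 intervals. The shared one lay at chr11:5218387-5218723, 3.36 kb downstream of the gene's start, with a total signal of 2883. Total signal is the authors' value for an interval, of unstated normalization, and is compared here only within the SOX2 list. A SOX2-only interval at chr11:5222452-5223152, centred 890 bp upstream of the start, had a total signal of 3996, higher than or equal to 82.3% of the SOX2 intervals of chromosome 11, and it held 5 cores. The third, at chr11:5225673-5226268, had 3246. The shared interval's region of maximum signal ran beyond its end, the only case among the 33. Its total of 2883 is more than its maximum of 7 could give over 337 bp, so these values may describe a wider interval. HBB itself carried 2 intervals in each list, which the selection left out, and none of them touched a member window.

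OR51B5 had the most intervals, 5, but its gene model is 202 kb long, since it includes far upstream exons and runs over other receptor genes. These intervals lay from 136930 to 192093 bp downstream of that start. Its SOX2-only intervals at chr11:5334570-5335008 and chr11:5335827-5336317 had total signals of 1549 and 1850, and the second was centred in the pseudogene OR51B3P. Those at chr11:5340490-5341198 and chr11:5358061-5359016 had 3637 and 4139, and its shared interval at chr11:5389798-5390106 had 1486. Of the 31-base words of the 4139 interval, 46.2% occur elsewhere in the genome, so its reads may be harder to place than those of an interval without repeats. The first 3 of these intervals also lay in the window of OR51B2, a receptor gene with an ordinary short body.

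OR56B1 had the member interval of highest total signal. This shared interval, at chr11:5756234-5757222, was centred 950 bp upstream of the gene's start in an intron of TRIM22 and TRIM5 models, with a total signal of 6935 and a percentile of 98.4 among SOX2 intervals of the chromosome. It held 3 cores and 1 AP-1 site (TGACTCA or TGAGTCA), and its entry in the seventh column of the SOX2 list, a whole number of unstated meaning, was 1. A SOX2-only interval at chr11:5754815-5755429, with a total signal of 2638 and no core, lay beside it. Both also fell in the window of OR52P1.

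The other class I genes with an interval were OR52K1, OR52I2, OR52I1, OR52H1, OR52N5, OR52N1 and OR52B2. The OR52K1 interval, chr11:4502119-4502537, was shared, lay 1548 bp upstream of the start and had a total signal of 2657, and the sequence shown for it includes an AP-1 site upstream of the core. The OR52H1 interval, chr11:5557789-5558693, was SOX2-only and had 5269, a percentile of 92.4, but lay 11.5 kb downstream of the start. The OR52I2 interval, chr11:4607054-4607995, lay in an intron of that gene with a total signal of 2925 and a flat profile, since its maximum of 6 extended over 569 bp. The OR52N1 interval, chr11:5811426-5812205, lay 679 bp downstream of the start in an intron, with 2290. The OR52B2 interval had 1656, in the lowest 22.3% of the chromosome. Total signal of class I intervals thus ran from 1486 to 6935.

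Among class II genes of the first cluster, OR10A2 carried a SOX2-only interval within an intron, chr11:6885366-6885957, 1374 bp downstream of its start, with a total signal of 3717. OR2AG1 and OR2AG2 shared the window of an interval at chr11:6802007-6802506, which was in both lists with a total signal of 3380. OR2AG2 had a second, SOX2-only interval of 1596 in which 85.4% of the 31-base words are repeated, the highest share among the 33. The OR10A6 interval, chr11:7946826-7947412, with 2556, was the only interval centred in an untranslated region. The intervals of OR6A2, OR10A5, OR2D2, OR2D3 and OR5P2 had total signals from 1288 to 3163, all SOX2-only. Only 1 of these class II intervals was shared.

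On the rest of the chromosome, OR6X1 had the second highest signal of the set. Its SOX2-only interval at chr11:123625379-123626726 began 152 bp beyond the gene body, was centred 827 bp upstream of the start, and had a total signal of 6731, a percentile of 98.0. OR8G5 carried the only SOX2-DBD-only interval, at chr11:124133747-124134754 in an intron, also in the window of OR8G1, with a total signal of 4160 in its own list. The OR8B4 interval, chr11:124285468-124286271, was SOX2-only with 3536. The OR9Q1 interval was shared, at chr11:57826554-57826800 in an intron of a model 158 kb long, with 1603. The OR10V1 interval, chr11:59473904-59474331, was shared with 2513 and had a seventh-column entry of 1, whereas the entry was 0 in the 5 shared intervals other than those of OR10V1 and OR56B1. OR4D11 and OR4D9 had an interval of 3278 in common, and OR5B2 and OR5B12 a pair of 2138 and 2114, all SOX2-only. The OR4B1 interval, chr11:48227895-48228642, had 2918 and again a flat maximum of 6 over 524 bp. Maxima at least 500 bp long were found in 2 of the 32 member intervals and in 27 (1.07%) of the SOX2 intervals of the rest of the chromosome.

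**Figure D4:**
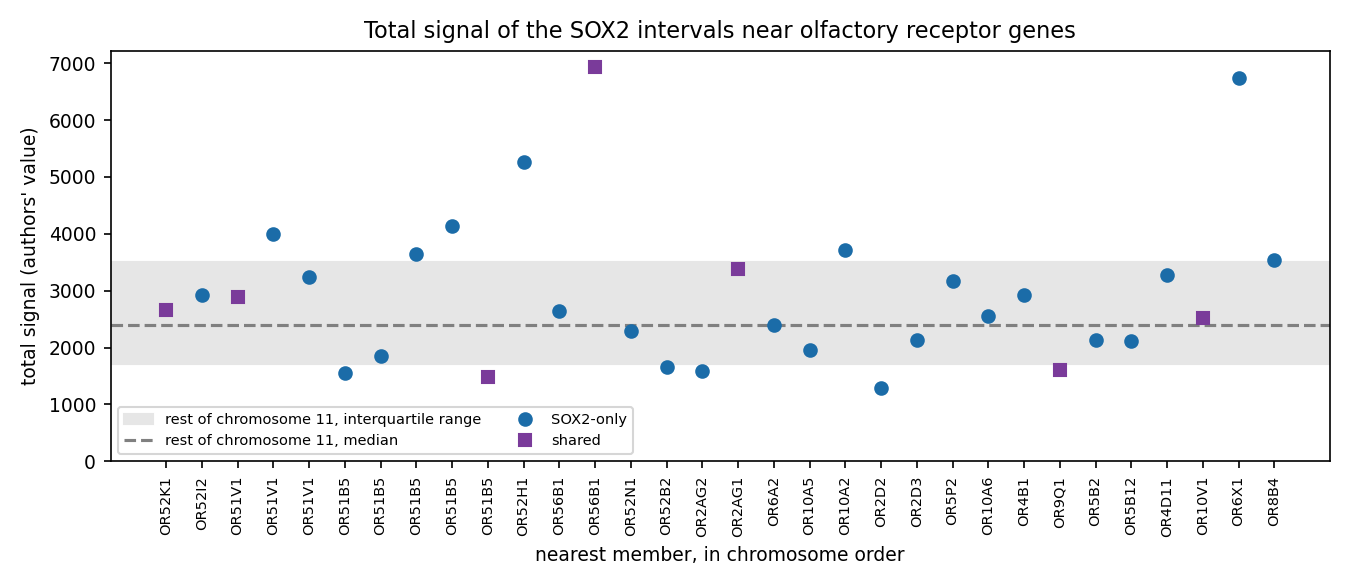
Total signal (vertical axis, the authors' value, unstated normalization) of each of the 32 SOX2 intervals in the windows, in chromosome order and named by the nearest olfactory receptor gene; circles are SOX2-only and squares shared intervals. The grey band and dashed line are the interquartile range and median of the rest of chromosome 11; OR56B1 and OR6X1 stand highest, at 6935 and 6731.

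The intervals in the windows were compared with those of the rest of the chromosome in signal, width, sharing and motif content, and no difference was larger than counting error for the shares. Median total signal in the SOX2 list was 2647.5 (interquartile range 2074 to 3419) in the windows and 2390 (1720 to 3510) elsewhere, and 8 of the 32 lay above the 75th percentile of the chromosome and 6 below the 25th. Median width was 594 bp against 516 bp. The share also found in the SOX2-DBD list was 21.9% (7 of 32, 11 to 38.8) against 22.0%, a difference of -0.0830 percentage points (-11.1 to 16.9). Of the member intervals, the down-sampled list also contained 78.1%, against 63.9% elsewhere, a difference of 14.2 points (-2.79 to 25.2). The core motif was present in the central 200 bp of 53.1% (36.4 to 69.1) against 48.2%, a difference of 4.89 points (-11.9 to 21.0), and AP-1 sites in 9.38% against 8.52%, with 3.12% and 3.06% of all 200-bp tiles of the windows and of the rest. Each of the 95% intervals given for these differences includes 0, and with 32 intervals they are wide.

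Relative to the genes, 11 of the 33 intervals touched the body of a member and 22 lay beside it. Centres fell in introns of annotated genes in 18 cases, outside genes in 13, in a non-coding exon in 1 and in an untranslated region in 1. Apart from the 6 intervals on the long models of OR51B5 and OR9Q1, 16 of 27 lay upstream of the nearest member's start and 11 downstream, at a median of 4.55 kb. Of all 33, 4 were centred within 1 kb of the nearest member's start, those of OR51V1, OR56B1, OR52N1 and OR6X1. Here the start is the outer end of the gene model. Counting every annotated start of any gene, 10 intervals were centred within 1 kb of one. Among these, the OR52I2 interval lay 496 bp and the SOX2-DBD-only interval of OR8G5 449 bp from another start of that gene. The selection set the outer limit of the distances from a member. Just inside it lay the OR4B1 interval, 9.72 kb from the gene body, and the OR2D2 interval, at 9.55 kb with a total signal of 1288. Just outside were intervals 11.8 kb from OR5P3, 12.7 kb from OR10Q1 and 13.4 kb from OR10A6, with total signals of 3509, 1742 and 2763.

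**Figure D5:**
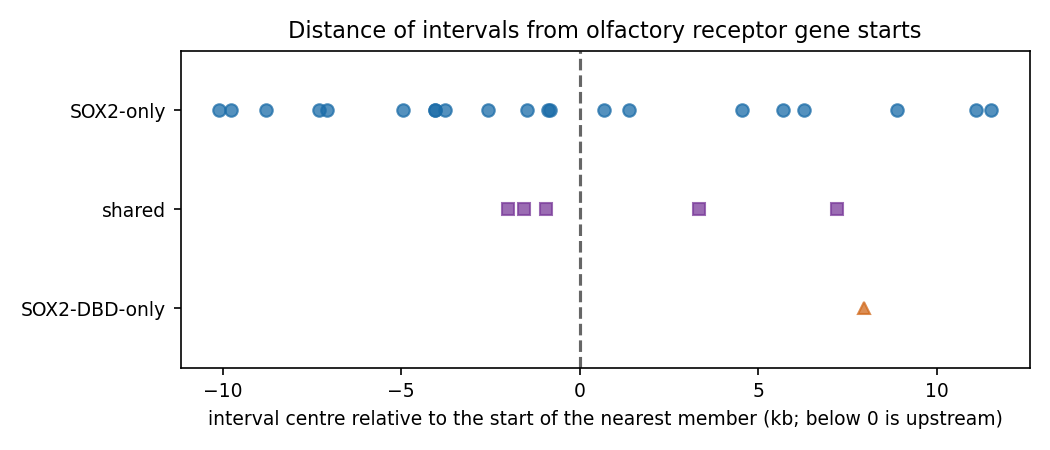
Distance in kb from the start of the nearest olfactory receptor gene to the centre of each of 27 intervals (horizontal axis, values below 0 are upstream), by class of interval; those on the long models of OR51B5 and OR9Q1 are left out. Of these intervals 16 lie upstream and 11 downstream, with 4 within 1 kb of the start, taken as the outer end of the gene model.

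Olfactory receptor genes on other chromosomes were counted in the same way. The 228 such genes on 17 chromosomes held 41 SOX2 intervals in 5.08 Mb, where the rest of their chromosomes would give 107, a ratio of 0.384 (0.275 to 0.520). Chromosome 7 went the other way and held 21 of these 41, at 52.5 per Mb in its 16 genes' windows against 21.4 in its rest, as did chromosome 15 with 4 intervals, at 38.7 against 21.7. Without chromosome 7 the ratio was 0.203 (0.124 to 0.314). For SOX2-DBD the ratio was 0.347 (0.166 to 0.638), and 0.150 (0.0409 to 0.385) without chromosome 7. The ratio of 0.458 on chromosome 11 overlaps the first of these values in its interval, so a low pooled density was not particular to chromosome 11.

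Genes that serve olfactory receptors in the cell were listed beside them: GNAL, ADCY3 and the cyclic nucleotide-gated channel genes CNGA2, CNGA4 and CNGB1 for transduction, RTP1, RTP2 and REEP1 for receptor transport, and LHX2, LDB1, EBF1 and EMX2 for receptor gene choice, with 10 others. Of these 22 genes, 8 had a SOX2 interval within 10 kb, below the 48.0% of the genome's other genes in share but few in number, and 5 had a SOX2-DBD interval, near the background of 24.1%. PDE1C, a phosphodiesterase gene of 677 kb, had 15 SOX2 intervals, EBF1 13 and RIC8B, which encodes a chaperone of the olfactory G protein, 10. GNAL and GNB1 had 3 each, REEP1 had 2, and ADCY3 and ANO2 had 1 each. Per 100 kb of window this was 7.42 for RIC8B, 3.07 for EBF1 and 2.15 for PDE1C, to be multiplied by 10 for a density per Mb. Outside olfactory receptor windows, the chromosomes of these genes held 23.7 (chromosome 12), 22.0 (chromosome 5) and 21.4 (chromosome 7) SOX2 intervals per Mb. The count of PDE1C was therefore that of its chromosome at this length. Those of RIC8B and EBF1 were higher than at the density of theirs, which was not tested. In the down-sampled list the counts were 4 for RIC8B, 8 for EBF1 and 8 for PDE1C. No SOX2 interval lay near CNGA4 or OMP, the listed genes on chromosome 11, nor near LHX2, LDB1, EMX2, CNGA2, CNGB1, RTP2 or the remaining listed genes. RTP1 and SLC24A4 had a SOX2-DBD interval without a SOX2 interval.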

How the data were processed

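CUT&RUN peak lists of 4 samples in 2 groups were considered, and files of replicate 1 of each group were analysed. Per the submitters' processing notes, Bowtie2 2.3.4.1, SAMtools, bedtools 2.27.1, SEACR 1.3 and deepTools 3.5.0 were used on hg19, with no roles, thresholds or filters given. The deposited signal columns, a total and a maximum for each interval, follow SEACR's column order, and their normalization is not given in the sources used here. The down-sampled list holds positions alone.

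Exact duplicate rows were counted once, and intervals on HBB were left out. Densities are per Mb of determined bases of the GRCh37 sequence, and no listed interval ran past the end of chromosome 11. Ratios carry exact conditional 95% intervals. The exceptions are ratios weighted to GC content and those for other chromosomes, whose exact Poisson intervals take the expected count as fixed. Genes come from GENCODE release 44 mapped to GRCh37. The members and gene lists were chosen with earlier results of these data known. Members were named if their body held an interval, if they lay nearest to a shared, SOX2-DBD-only or interval or to 1 of the 10 SOX2 intervals of highest total signal, or if they were among the 5 with most intervals, and class II genes of the first cluster were added after their values were seen. Motifs were sought on both strands. Some interval sequences are not reported here. Alternatives covered the window, the list, the signal threshold, merging, GC content, repeated sequence, pseudogenes and each cluster. Code was tested on simulated placements. Versions were matplotlib 3.10.9, numba 0.67.0, scipy 1.17.1, pandas 2.3.3, numpy 2.4.6 and python 3.11.15.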

Additional observations from a re-analysis of the deposited data

How the results depend on the processing

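No paired analysis was possible because only replicate 1 of either group had files here, and for the same reason no fit could leave a replicate out. The SOX2 density ratio stayed below 1 under all 24 alternatives, with no upper bound above 0.980, and 22 of them fell inside the interval of the reported value, from 0.363 to 0.619. It was 0.188 without the OR52B4 to OR10A3 cluster and 0.662 (0.449 to 0.942) without the members of the longest interval-free stretch. The SOX2-DBD ratio ranged from 0.298 to 0.903 over 23 alternatives, all below 1, but in 6 of them the interval included 1. For both lists, 3 alternatives were chosen after seeing the data: stretches between the windows as the rest, omission of OR51B5 and OR9Q1, and omission of the interval-free stretch. Adding pseudogenes, for 369 genes in all, gave 0.370 for SOX2. Members with a SOX2 interval numbered 6 on the gene body alone and 64 with 50 kb either side. Those with a SOX2-DBD interval numbered 3 and 27 under the same settings, 7 with equal 20-kb windows and 7 among intervals above the median total signal. The median of maximum signal, another quantity than total signal, was 9. A longer SOX motif, NNCAANGG with A or T at each N, was present in 6.25% of central windows, against 13.3% in the rest of chromosome 11 and 7.37% of tiles of the windows. The share found in both lists and the count of listed olfactory genes did not move beyond their limits. Unknown depth limits every count, since a deeper library yields more intervals.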
